A study of Mus musculus with 8 samples.

Results

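Imprinted genes are expressed mainly from one parental copy, and 37 of them, listed from the literature by cluster and by expressed allele, were followed across control ESCs and ESCs depleted of Hira, Ubn1 or Ubn2. All 37 symbols were among the 55418 genes of the count tables and each matched 1 gene of the GENCODE annotation. By the literature 10 of the 37 are expressed from the maternal allele, 24 from the paternal allele and 3 in a way that depends on the tissue.

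At an imprinted cluster, DNA methylation laid down in the egg or the sperm marks a control region on one parental copy, and after fertilization that mark is kept while most other methylation is erased. Zfp57 and Trim28, with Dnmt1 and Uhrf1, are known for holding the mark in ESCs. Many members act on growth: Igf2 and other paternally expressed genes tend to promote it, whereas Cdkn1c, Phlda2, Grb10 and Igf2r restrain it. Several clusters also carry a long noncoding RNA, such as H19, Kcnq1ot1, Airn or Meg3.

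The HIRA complex deposits the histone variant H3.3, and Ubn1 and Ubn2 are its H3.3-binding subunits. RNA-seq was performed on E14 mouse ESCs (strain label 12910la), with 2 libraries for each of 4 groups: control, Hira_KD, Ubn1_KD and Ubn2_KD. All groups were grown on gelatin, in 15% serum with 10 ng/ml LIF, transfected with 1000 ng of a pSuper puro plasmid and, by the labels, selected with 1 ug/ml puromycin from 24 h for 3 days. The depleted groups received an shRNA against the named gene; the control is labelled wild type, and luciferase is the target named in the study's methods for its control shRNA. Each group is thus a transient pool of 1 line, and nothing says that its libraries came from separate cultures, so p-values measure only the spread between these samples. Parental origin was not measured: the counts add both alleles.

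Library totals lay between 19710040 and 32706053 counts, and the 37 genes held 0.295% to 0.302% of the counts in control, 0.357% to 0.370% after Hira depletion, 0.311% to 0.318% after Ubn1 depletion and 0.401% to 0.422% after Ubn2 depletion. Hira, Ubn1 and Ubn2 mRNA were each lower in their own depletion, with log2 fold changes of -3.22, -1.03 and -0.90. Depth of depletion thus differed, and between depletions it cannot be told apart from the gene that was depleted. The 10 pluripotency markers summed to 6979 to 7329 CPM in control and 5790 to 6335 CPM in the depleted groups, and each of the 10 was detected in every group. Of these markers, Fgf4 was called lower after Hira depletion, and Tdgf1, Dppa5a and Fgf4 after Ubn2 depletion, where 5.4% and 8.75% of all genes were called lower. CPM is the count scaled to library size after TMM normalization, the usual CPM of edgeR. A gene is called changed at an edgeR adjusted p under 0.05 with a fold over 1.5.

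The letters TGCCGC, which read GCGGCA on the other strand, are the core of the site that Zfp57 binds when it is methylated. They were searched on both strands in the RefSeq promoter windows of GRCm38.p6, which run from 250 bases before to 50 after a transcript start. At least 1 match stood in 13 of 46 member windows, or 28.3% (Wilson 95% interval 17.3% to 42.5%), and in 11.6% of all 32851 windows. Some member windows with a match repeat: Snrpn and Snurf share chr7:60005150-60005449, and the Mest windows starting at 30737800 and 30737803 overlap. The share and the interval count these as separate windows, and Snrpn and Snurf are counted as separate genes below. By gene, 12 of the 30 members with a window held a match, and 13.1% of all 27025 genes did. Member windows held a median of 12.5 CpG pairs, and all windows a median of 7.0. RefSeq starts can lie away from the GENCODE start of a gene, as at Zdbf2. A match of 6 letters is a description of the window and no evidence of binding. Among the 12 members with a match, 9 were called in at least 1 depletion, and among the 18 without one, 10 were. Of the 7 members without a window, 4 were called. The share of all genes called in at least 1 depletion was not computed, and a link of the letters with the calls was not tested.

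Shown first are the 250 bases before the start for the called members that hold a match there, 5′ to 3′ with the match in capitals.
Mest (chr6:30737800-30738049, + strand): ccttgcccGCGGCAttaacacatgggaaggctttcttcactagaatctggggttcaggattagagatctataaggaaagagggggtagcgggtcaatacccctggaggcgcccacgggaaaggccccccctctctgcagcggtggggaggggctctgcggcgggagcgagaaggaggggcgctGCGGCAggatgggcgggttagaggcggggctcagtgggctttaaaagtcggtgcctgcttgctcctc
Meg3 (chr12:109540746-109540995, + strand): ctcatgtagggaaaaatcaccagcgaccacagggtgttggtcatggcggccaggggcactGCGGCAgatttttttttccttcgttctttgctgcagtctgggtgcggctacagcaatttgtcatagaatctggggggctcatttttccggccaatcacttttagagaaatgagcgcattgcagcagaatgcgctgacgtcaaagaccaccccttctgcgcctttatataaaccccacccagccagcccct
Plagl1 (chr10:13090582-13090831, + strand): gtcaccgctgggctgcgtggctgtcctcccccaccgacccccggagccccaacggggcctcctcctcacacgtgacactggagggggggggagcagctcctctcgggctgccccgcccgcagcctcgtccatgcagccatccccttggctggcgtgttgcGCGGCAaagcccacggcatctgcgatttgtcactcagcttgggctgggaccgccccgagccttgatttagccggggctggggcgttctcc
Zdbf2 (chr1:63200108-63200357, + strand): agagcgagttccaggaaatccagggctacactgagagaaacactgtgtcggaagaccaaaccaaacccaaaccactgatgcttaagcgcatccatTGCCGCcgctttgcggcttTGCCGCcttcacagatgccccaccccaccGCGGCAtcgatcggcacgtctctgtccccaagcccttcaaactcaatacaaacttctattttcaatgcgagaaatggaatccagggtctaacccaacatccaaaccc
Mcts2 (chr2:152686898-152687147, + strand): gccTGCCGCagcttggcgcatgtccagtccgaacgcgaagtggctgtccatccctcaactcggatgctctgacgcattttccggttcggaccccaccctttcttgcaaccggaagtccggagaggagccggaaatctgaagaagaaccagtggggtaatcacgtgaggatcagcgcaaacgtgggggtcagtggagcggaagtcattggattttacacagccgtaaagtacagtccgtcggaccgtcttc

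In Grb10, Nnat, Igf2 and Snrpn, also called, the match lies across or within 50 bases after the start, and the 30 bases around it are given.
Grb10 (chr11:12037379-12037408, - strand): gggtgcggggagGCGGCAggaagggaaggg
Nnat (chr2:157560093-157560122, + strand): gccaccggggctGCGGCAttgcgcccagca
Igf2 (chr7:142661224-142661253, - strand): tacggtgtcccaGCGGCAgcacagattttg
Snrpn (chr7:60005184-60005213, - strand): gacccctgcattGCGGCAaaaatgtgcgca

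Of the 37 genes, 36 had enough counts to be tested in each comparison. After Hira depletion 7 were called higher and 3 lower, where 10.8% and 5.4% of all 19035 genes tested were called higher and lower. After Ubn1 depletion 0 were called higher and 6 lower, against 1.53% and 1.56% of 18373 genes. After Ubn2 depletion 12 were called higher and 3 lower, against 9.59% and 8.75% of 18219 genes. As shares of the 36 tested, the calls came to 27.8%, 16.7% and 41.7%, beside 16.2%, 3.09% and 18.3% of all genes. The median log2 fold change of the 36 was 0.16, 0.09 and 0.30 after Hira, Ubn1 and Ubn2 depletion, with all-gene medians of 0.01, -0.002 and -0.004. For the count of 0 after Ubn1 depletion, DESeq2 also called 0 higher. At an unadjusted p under 0.05 in edgeR, 12 members were higher and 11 lower. Shares of all genes at that unadjusted limit were not computed in any comparison.

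At these limits Slc22a18 was the only member called in all 3 depletions, 6 were called in 2, 16 in 1 and 14 in none. The Ubn1 call of Slc22a18 was lost in DESeq2, and Phlda2 missed the Hira call by the fold limit alone (-0.58). Matching counts over all genes were not made. The 3 depletions share their control libraries, so a value of the control enters all 3 comparisons. To set the depletions against each other, they were also compared directly. Hira against Ubn2 depletion called 7 members higher and 8 lower, where 12% and 5.61% of all genes were called. Ubn2 against Ubn1 depletion called 7 higher and 1 lower (4.61% and 4.09% of all genes), and Hira against Ubn1 depletion called 8 higher and 0 lower (9.52% and 3.16%). In either direction 17.6%, 8.7% and 12.7% of all genes were called in these 3 comparisons. For that count of 0, DESeq2 also called 0, and at an unadjusted p under 0.05 in edgeR 7 members were lower and 13 higher. The last 2 of these comparisons were added after the values against control had been seen.

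**Figure D1:**
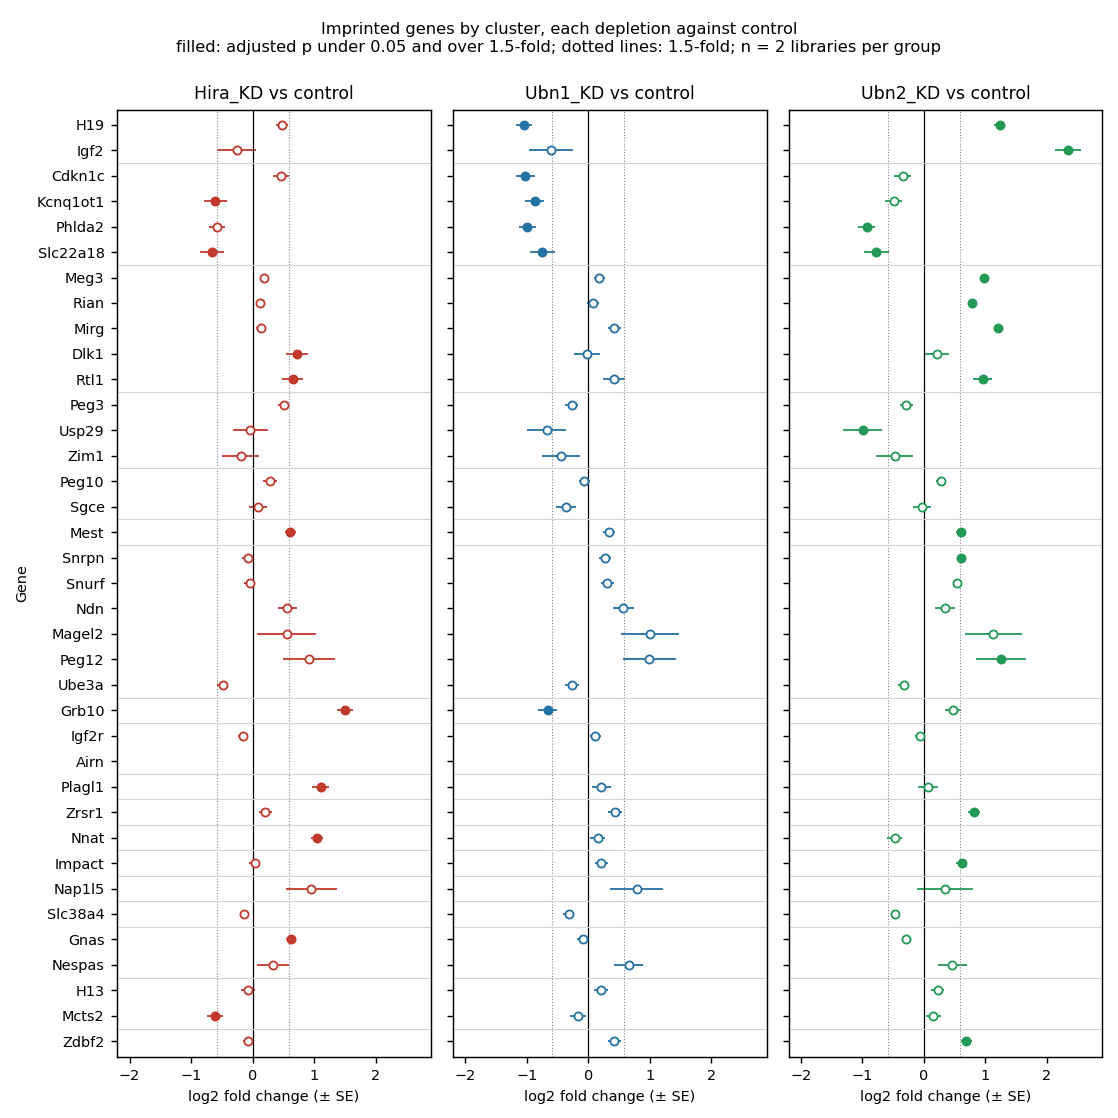
Fitted log2 fold change (± SE, 2 libraries per group) of each imprinted gene against control, by cluster, with filled points for called genes. In the Kcnq1ot1 cluster all 4 genes are called lower after Ubn1 depletion, while H19 and Igf2 are called higher after Ubn2 depletion. Among all genes, 1.56% are called lower after Ubn1 depletion and 9.59% higher after Ubn2 depletion.

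H19 and Igf2, neighbours on distal chromosome 7, gave the widest spread between depletions. H19 (chr7:142575529-142578143, a lincRNA of the maternal allele, host of Mir675) measured 33.7 and 32.3 CPM in control and 14.6 and 17.2 CPM after Ubn1 depletion. Hira-depleted libraries held 47.8 and 44.1 CPM, and Ubn2-depleted libraries 81.8 and 71.0 CPM. No pair of groups overlapped. Against control H19 fell by 1.05 ± 0.12 (SE) on the log2 scale after Ubn1 depletion (edgeR adjusted p = 1.04e-06) and rose by 1.23 ± 0.09 after Ubn2 depletion (edgeR adjusted p = 1.23e-09). After Hira depletion its log2 fold change was 0.47 ± 0.10, below the 1.5-fold limit (edgeR adjusted p = 0.00067). The direct difference between Ubn2 and Ubn1 depletion was 2.27 ± 0.12 on the log2 scale (edgeR adjusted p = 1.47e-09), and that between Hira and Ubn1 depletion 1.54 ± 0.12.

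Igf2 (chr7:142650766-142666816), the paternally expressed growth factor of the same domain, was at 1.95 and 2.29 CPM in control, 2.07 and 1.47 CPM after Hira depletion, 1.91 and 0.922 CPM after Ubn1 depletion, and 11.7 and 9.66 CPM after Ubn2 depletion. Only the Ubn2-depleted libraries stood apart, at 191 and 256 counts beside 24 to 72 counts in the other libraries. The rise was 5.04-fold in mean CPM, with a log2 fold change of 2.34 ± 0.21 (edgeR adjusted p = 2.21e-08). Hira and Ubn1 depletion gave -0.26 ± 0.32 and -0.60 ± 0.36, neither called. Igf2 shares 62.8% of its exon bases with Gm49394, a same-strand gene that was called higher after Ubn2 depletion as well (2.40 ± 0.22), so the counts of the pair cannot be told apart over those bases. The maternally expressed H19 and the paternally expressed Igf2 were both higher after Ubn2 depletion.

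Markers of mesoderm and muscle had a higher summed level in the same Ubn2-depleted libraries than in control, though only 3 of the 6 tested had a positive log2 fold change. Their summed level was 13.4 and 14.4 CPM in control, 11.9 to 13.8 CPM after Hira depletion, 9.06 to 12.7 CPM after Ubn1 depletion, and 142 and 85.4 CPM in the Ubn2-depleted libraries. Actc1, Tnnt2 and Csrp3 were called higher among the 6 of 10 markers tested, and Myl7 and T lower. DESeq2 called 3 of the 10 markers higher and 1 lower. Of all genes, 9.59% and 8.75% were called higher and lower in edgeR after Ubn2 depletion. Hand2, Tbx5 and Csrp3 were at 0 in both control libraries. Of 10 fibroblast markers, 8 were tested after Ubn2 depletion: Col3a1, Postn, Col1a2 and Twist1 were called higher and Pdgfrb and Thy1 lower, with the summed level between 1495 and 1607 CPM beside 1488 and 1512 CPM in control. In bulk RNA a change in the share of cells of a type and a change in RNA per cell cannot be told apart. The 10 markers of the two-cell-like state summed to 3.06 to 6.43 CPM in control, 16.6 to 22.9 CPM after Hira depletion, 12.7 to 13.5 CPM after Ubn1 depletion and 22.6 to 31.2 CPM after Ubn2 depletion. Primitive endoderm markers summed to between 64.6 and 84.0 CPM over all libraries. Sox17 was called higher after Hira depletion (10.8% of all genes were) and Gata6 and Pdgfra lower after Ubn1 depletion (1.56% of all genes). DESeq2 made none of these calls, with 0 primitive endoderm markers higher after Hira and 0 lower after Ubn1 depletion. Of 7 trophoblast markers tested after Ubn2 depletion, Gata3 was called higher and Krt8, Krt18 and Ascl2 lower. DESeq2 called 0 trophoblast markers higher and 3 lower there. Their sums were 61.1 to 65.3 CPM against 75.6 to 78.6 CPM in control. The part of these cell types in the Ubn2 results was not tested.

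In the neighbouring Kcnq1ot1 domain, farther along distal chromosome 7, all 4 members were called lower after Ubn1 depletion. Of the 4, 2 were called lower after Hira depletion and 2 after Ubn2 depletion, and Cdkn1c was above control after Hira depletion without being called. Among all genes, 1.56%, 5.4% and 8.75% were called lower after Ubn1, Hira and Ubn2 depletion. The median log2 fold change of the 4 was -0.93, -0.59 and -0.63 after Ubn1, Hira and Ubn2 depletion. Kcnq1ot1, the paternally expressed noncoding RNA that silences this domain in cis, measured 21.4 and 16.6 CPM in control, 15.7 and 8.89 CPM after Hira depletion, 10.2 and 10.4 CPM after Ubn1 depletion, and 13.2 and 13.4 CPM after Ubn2 depletion. Every depleted library was below both controls. Its log2 fold change was -0.87 ± 0.15 after Ubn1 depletion (edgeR adjusted p = 0.000366), -0.60 ± 0.19 after Hira depletion (0.0167) and -0.49 ± 0.14 after Ubn2 depletion, the last not called. The Hira call was lost without the first control library (-0.42, adjusted p = 0.071) and without the second Hira-depleted library (-0.28, adjusted p = 0.18).

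Cdkn1c (chr7:143458339-143461050), an inhibitor of cyclin-dependent kinases from the maternal allele, measured 16.6 and 20.8 CPM in control, 27.5 and 24.3 CPM after Hira depletion, 8.33 and 9.95 CPM after Ubn1 depletion, and 14.2 and 15.0 CPM after Ubn2 depletion. The Hira-depleted libraries were above and the other depleted libraries below control. It was called against control only after Ubn1 depletion, at -1.02 ± 0.16 (edgeR adjusted p = 4.63e-05), while Hira depletion gave 0.46 ± 0.13 and Ubn2 depletion -0.35 ± 0.13. Compared directly, Hira depletion exceeded Ubn1 depletion by 1.51 ± 0.15 and Ubn2 depletion by 0.83 ± 0.12, both called. Gm44732, on the opposite strand, shares 30.7% of the exon bases of Cdkn1c and was also called lower after Ubn1 depletion (-1.07 ± 0.17).

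Phlda2 and Slc22a18 lie beside Cdkn1c and did not overlap control in any depletion. Phlda2, which limits growth of the placenta, had 21.3 and 21.5 CPM in control, 15.5 and 13.1 CPM after Hira depletion, 10.3 and 11.1 CPM after Ubn1 depletion, and 9.64 and 12.6 CPM after Ubn2 depletion. It fell by 0.99 ± 0.14 on the log2 scale after Ubn1 depletion and by 0.93 ± 0.14 after Ubn2 depletion (edgeR adjusted p = 1.78e-05 and 2.23e-05). After Hira depletion the value was -0.58 ± 0.13, just inside the fold limit and so not called. It was called lower there with DESeq2 (-0.60, adjusted p = 0.00256), with DESeq2 size factors, without the filter on low counts, with the replicate block and in 3 of the 4 fits that left out 1 library. Slc22a18, a transporter, measured 7.35 and 7.42 CPM in control, 4.77 and 4.59 CPM after Hira depletion, 3.96 and 4.77 CPM after Ubn1 depletion, and 3.70 and 4.86 CPM after Ubn2 depletion. It fell by 0.66, 0.75 and 0.77 after Hira, Ubn1 and Ubn2 depletion, each ± 0.19 to 0.20, with edgeR adjusted p of 0.0114, 0.0208 and 0.0042. The Ubn1 call was lost in DESeq2 (adjusted p = 0.0819) and without either control library or the first Ubn1-depleted library (adjusted p of 0.0613 to 0.113). The Ubn2 call was lost without the first Ubn2-depleted library (-0.58, adjusted p = 0.056).

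**Figure D2:**
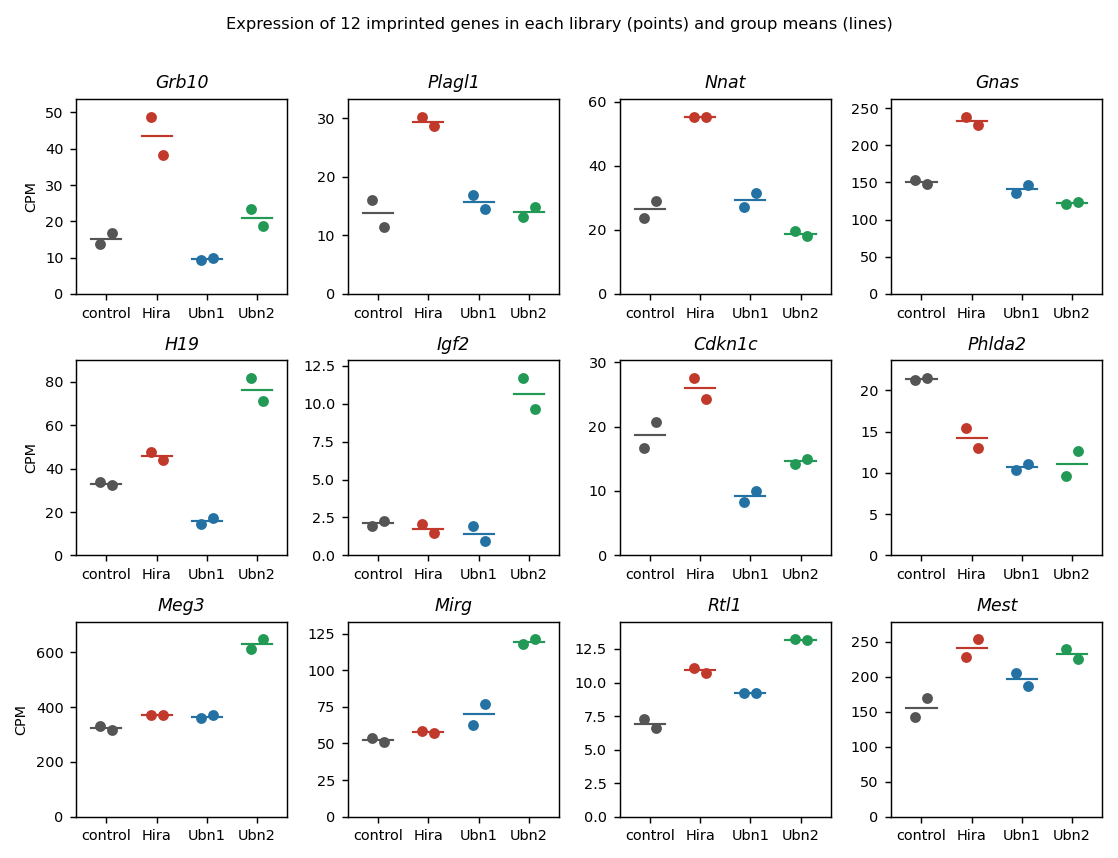
CPM of 12 imprinted genes in each of the 8 libraries, with a line at each group mean and axes from 0. Igf2 stands at 11.7 and 9.66 CPM in the Ubn2-depleted libraries and between 0.922 and 2.29 CPM elsewhere, and Grb10 stands at 48.8 and 38.2 CPM in the Hira-depleted libraries.

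In the Dlk1-Meg3 cluster on chromosome 12, the 3 maternally expressed noncoding RNAs rose together after Ubn2 depletion. They are transcribed in the same direction, and Mirg carries 14 miRNA hairpins on its strand, Rian 3 and Meg3 1. Meg3 measured 333 and 315 CPM in control, 372 and 371 CPM after Hira depletion, 359 and 372 CPM after Ubn1 depletion, and 613 and 647 CPM after Ubn2 depletion. Rian had 443 and 402, 476 and 450, 438 and 449, and 724 and 710 CPM in the same order. For Mirg the values were 53.5 and 51.1, 58.6 and 57.0, 62.7 and 76.9, and 118 and 121 CPM. In all 3 RNAs both Ubn2-depleted libraries exceeded every other library. Their log2 fold changes after Ubn2 depletion were 0.98 ± 0.07 for Meg3, 0.78 ± 0.07 for Rian and 1.21 ± 0.07 for Mirg, the last with an edgeR adjusted p of 8.82e-11. Relative to Ubn1 depletion, Ubn2 depletion was higher by 0.79, 0.70 and 0.78 for Meg3, Rian and Mirg on the log2 scale, and the log2 differences of Hira from Ubn2 depletion were -0.77, -0.63 and -1.05, all 6 called. Gm26906, on the strand opposite Meg3 and over 6.79% of its exon bases, was called higher after Ubn2 depletion as well (1.13 ± 0.08).

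Of the paternally expressed members of this cluster, 1 was called after Ubn2 depletion, where 9.59% of all genes were called higher. Rtl1, a retrotransposon-derived gene needed in the placenta, rose after Hira and after Ubn2 depletion, from 7.25 and 6.59 CPM in control to 11.1 and 10.7 CPM and to 13.2 and 13.2 CPM, with 9.20 and 9.22 CPM after Ubn1 depletion. The log2 fold changes were 0.65 ± 0.17, 0.96 ± 0.16 and, not called, 0.42 ± 0.18, and the Hira call was lost without the second control library (0.57). On the strand opposite Rtl1 lie 6 miRNA hairpins, so reads of the antisense transcript cannot be separated here. Dlk1, a transmembrane ligand related to those of the Notch pathway, measured 4.92 and 6.08 CPM in control and 9.40 and 8.98 CPM after Hira depletion, and its rise was 0.72 ± 0.18 (edgeR adjusted p = 0.00433). Dlk1 stood at 5.69 and 5.15 CPM after Ubn1 depletion and 5.80 and 6.83 CPM after Ubn2 depletion, overlapping control.

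Grb10 had the largest fitted fold change of the 36 members tested after Hira depletion. This adaptor protein of growth factor receptors, which restrains growth, measured 13.8 and 16.7 CPM in control, 48.8 and 38.2 CPM after Hira depletion, 9.38 and 9.88 CPM after Ubn1 depletion, and 23.3 and 18.7 CPM after Ubn2 depletion. No 2 groups overlapped. The change was 2.86-fold in mean CPM, with an SE of 0.13 on the log2 scale (edgeR adjusted p = 2.72e-08). After Ubn1 depletion it fell by 0.66 ± 0.16 (edgeR adjusted p = 0.0072), a call lost without the second control library (-0.52, adjusted p = 0.186), and after Ubn2 depletion the value was 0.47 ± 0.14. The difference between Hira and Ubn1 depletion was 2.19 ± 0.14, and Ubn2 exceeded Ubn1 depletion by 1.13 ± 0.15.

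Plagl1, Nnat and Gnas rose after Hira depletion and were called in neither of the other depletions. Plagl1, a zinc finger transcription factor, measured 16.1 and 11.4 CPM in control, 30.2 and 28.6 CPM after Hira depletion, 16.9 and 14.6 CPM after Ubn1 depletion, and 13.2 and 14.8 CPM after Ubn2 depletion. Its log2 fold change after Hira depletion was 1.11 ± 0.14 (edgeR adjusted p = 4.76e-06), and the Hira-depleted libraries alone stood apart. Nnat, a small membrane protein of neurons and endocrine cells, had 23.8 and 29.1 CPM in control, 55.3 and 55.1 CPM after Hira depletion, 27.0 and 31.6 CPM after Ubn1 depletion, and 430 and 356 counts, or 18.8 ± 1.16 CPM (SD, n = 2), after Ubn2 depletion. It rose by 1.05 ± 0.10 after Hira depletion (edgeR adjusted p = 1.62e-07), while the value after Ubn2 depletion was -0.48 ± 0.12. Gnas, which encodes the stimulatory G protein alpha subunit, went from 153 and 148 CPM to 238 and 228 CPM, with a log2 fold change of 0.62 ± 0.07 (0.58 and not called without the second control library). It stood at 136 and 147 CPM after Ubn1 depletion and 121 and 124 CPM after Ubn2 depletion.

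The 3 genes also differed between depletions. Hira depletion exceeded Ubn2 depletion by 1.07 ± 0.12 for Plagl1, 1.55 ± 0.10 for Nnat and 0.93 ± 0.07 for Gnas, and exceeded Ubn1 depletion by 0.91, 0.92 and 0.73, all called. Gm20721, on the opposite strand over 13.1% of the exon bases of Gnas, was also called higher after Hira depletion (0.61 ± 0.07). Beside these rises, 6 of the 8 neural markers tested were called higher after Hira depletion, where 10.8% of all genes were. The 10 markers summed to 319 and 329 CPM against 143 and 156 CPM in control, 176 to 201 CPM after Ubn1 and 145 to 149 CPM after Ubn2 depletion. Of 7 trophoblast markers tested after Hira depletion, 4 were called higher and 1 lower, beside 10.8% and 5.4% of all genes. DESeq2 called 3 higher and 1 lower. Their sums were 115 to 142 CPM against 75.6 to 78.6 CPM in control. In these lists Dcx and Prl3d1 were at 0 in every library of all 4 groups. Their part in the Hira results was not tested.

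**Figure D3:**
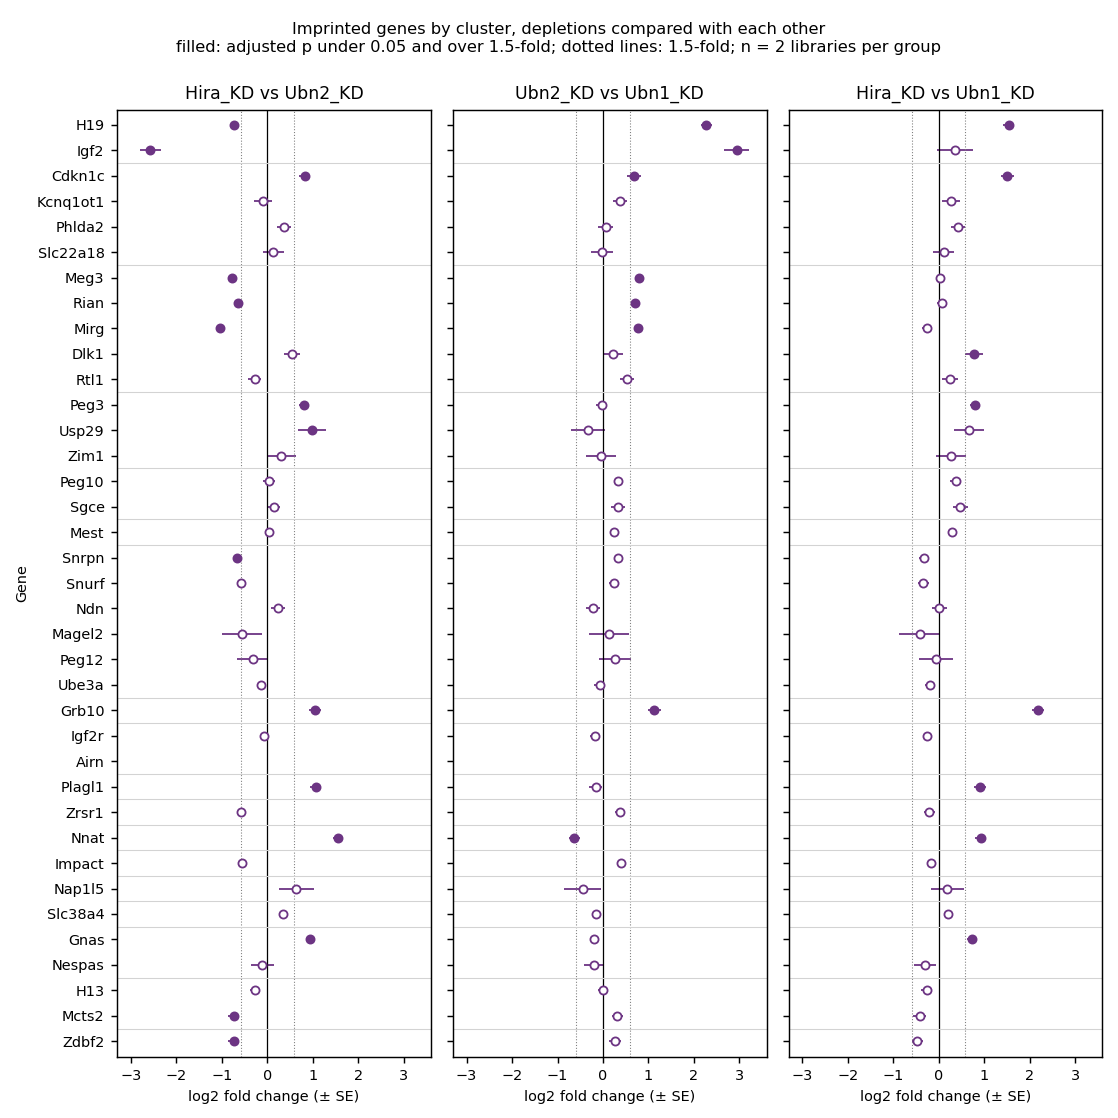
Fitted log2 difference (± SE, 2 libraries per group) of each imprinted gene between depletions, by cluster, with filled points for called genes. Igf2 lies at -2.57 in Hira against Ubn2 depletion and at 2.95 in Ubn2 against Ubn1 depletion, and Grb10 at 2.19 in Hira against Ubn1 depletion.

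Mest rose after Hira and after Ubn2 depletion. This paternally expressed member of the hydrolase fold family measured 142 and 169 CPM in control, 228 and 253 CPM after Hira depletion, 206 and 187 CPM after Ubn1 depletion, and 240 and 226 CPM after Ubn2 depletion. All depleted libraries exceeded both controls. Its log2 fold changes were 0.62 ± 0.08 after Hira and 0.60 ± 0.08 after Ubn2 depletion, both near the fold limit, and 0.34 ± 0.10 after Ubn1 depletion. Both calls were lost without the first control library (0.50 and 0.48), the Hira call without the second Hira-depleted library (0.53), and the Ubn2 call without the first Ubn2-depleted library (0.56) or without the filter on low counts. The antisense neighbour Copg2 covers 23.1% of the exon bases of Mest and was called in none of the depletions.

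Of the 6 members of the Snrpn domain on central chromosome 7, Snrpn and Peg12 were called higher after Ubn2 depletion and none was called in the other depletions. Among all genes, 9.59% were called higher after Ubn2 depletion, and 16.2% and 3.09% in either direction after Hira and Ubn1 depletion. Snrpn, a splicing protein, measured 164 and 181 CPM in control, 151 and 177 CPM after Hira depletion, 188 and 224 CPM after Ubn1 depletion, and 263 and 254 CPM after Ubn2 depletion, and its log2 fold change in the last was 0.60 ± 0.07 (edgeR adjusted p = 8.45e-07). That call was lost without the first control library (0.54), without the first Ubn2-depleted library (0.58) and without the filter on low counts. Snurf, whose 216 annotated exon bases all lie in exons of Snrpn, gave 0.54 ± 0.08, so the values of the pair are not independent. Peg12 rose from 0.828 and 0.637 CPM to 1.69 and 1.72 CPM after Ubn2 depletion, beside 1.37 and 1.37 CPM after Hira and 1.28 and 1.58 CPM after Ubn1 depletion (1.25 ± 0.40, edgeR adjusted p = 0.0172), on 17 to 37 counts per library in the 2 groups, and the call was lost in DESeq2 and without the second control library or either Ubn2-depleted library (adjusted p of 0.0686 to 0.119). Ndn and Magel2, both of the MAGE family, were called in no depletion, with log2 fold changes of 0.35 to 0.57 and 0.55 to 1.13. Ube3a, the ubiquitin ligase silenced on the paternal copy in neurons, was likewise not called, at -0.48, -0.26 and -0.33 after Hira, Ubn1 and Ubn2 depletion.

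At the Peg3 domain on proximal chromosome 7 the members differed. Peg3, a zinc finger protein, had 56.6 and 65.5 CPM in control, 81.1 and 93.4 CPM after Hira depletion, 52.2 and 48.8 CPM after Ubn1 depletion, and 56.3 and 42.2 CPM after Ubn2 depletion. It was not called against control (0.50 ± 0.09 after Hira depletion), whereas Hira depletion exceeded Ubn2 depletion by 0.82 ± 0.11 and Ubn1 depletion by 0.79 ± 0.10, both called. Usp29, a ubiquitin protease transcribed away from the same promoter region, fell by 1.00 ± 0.32 after Ubn2 depletion, from 2.19 and 3.09 CPM to 1.42 and 1.21 CPM (edgeR adjusted p = 0.0168), beside 83 and 58 counts after Hira and 44 and 35 counts after Ubn1 depletion. With 24 to 97 counts per library, that call was lost in DESeq2 (adjusted p = 0.125), without the second control library (0.208) and without the second Ubn2-depleted library (0.0708). Zim1 lay between -0.48 and -0.19 on the log2 scale and was not called.

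Zrsr1, Impact and Zdbf2, each paternally expressed, rose after Ubn2 depletion. Zrsr1, a retrogene for a splicing factor inside Commd1, measured 25.5 and 27.6 CPM in control, 30.2 and 31.7 CPM with Hira depleted, 32.5 and 38.9 CPM with Ubn1 depleted, and 47.6 and 44.6 CPM with Ubn2 depleted. Its log2 fold change in the last was 0.81 ± 0.10 (edgeR adjusted p = 1.2e-06), and no other group reached those libraries. Commd1, on the opposite strand, shares 9.17% of the exon bases of Zrsr1. Impact, a regulator of translation, had 205 and 165 CPM in control, 201 and 179 CPM with Hira depleted, 229 and 198 CPM with Ubn1 depleted, and 285 and 273 CPM with Ubn2 depleted (0.61 ± 0.09), a call lost without the second control library (0.45). Zdbf2, a zinc finger gene, had 117 and 110 CPM in control, 97.2 and 121 CPM with Hira depleted, 168 and 134 CPM with Ubn1 depleted, and 208 and 152 CPM with Ubn2 depleted (0.69 ± 0.10), and the call was lost without the first Ubn2-depleted library (0.45). For none of the 3 genes did Ubn2-depleted libraries overlap control, which is no further support, as the genes were picked by their calls.

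Mcts2, a retrogene inside H13, fell after Hira depletion. It measured 19.1 and 20.9 CPM in control, 12.2 and 14.2 CPM with Hira depleted, 17.1 and 18.3 CPM with Ubn1 depleted, and 21.1 and 22.8 CPM with Ubn2 depleted. The Hira-depleted libraries were the lowest, at -0.61 ± 0.13 (edgeR adjusted p = 0.0013), and the host H13 was not called (-0.07 ± 0.12). That call was lost without the second control library (-0.56) or the first Hira-depleted library (-0.50). Zrsr1, Mcts2 and Nap1l5 each have a close copy elsewhere in the genome, and how reads shared with it were counted is not given in the sources used here.

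Members that were called in no depletion included some of the most abundant. Slc38a4, an amino acid transporter, measured 348 and 342 CPM in control, 321 and 311 CPM after Hira depletion, 272 and 278 CPM after Ubn1 depletion, and 247 and 246 CPM after Ubn2 depletion. Every depleted library was below both controls, and the log2 fold changes were -0.13, -0.32 and -0.47. Igf2r, the receptor that clears Igf2, stayed within 184 to 236 CPM over all 8 libraries and within -0.16 to 0.11 on the log2 scale. Peg10 and Sgce, which share a promoter region on chromosome 6, lay between -0.07 and 0.28 and between -0.36 and 0.09. Nespas, antisense to Gnas, lay between 0.33 and 0.66, and Nap1l5 between 0.34 and 0.96 on 11 to 48 counts per library.

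Airn, the noncoding RNA antisense to Igf2r, was the member left untested. It had 0 counts in both control libraries, 12 and 7 counts with Hira depleted, 0 and 3 with Ubn1 depleted, and 0 and 2 with Ubn2 depleted. Against a floor of 3 counts per control library, mean CPM was at least 2.88-fold higher after Hira depletion. Without the filter on low counts edgeR called it higher there (adjusted p = 0.0074).

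Levels within control were compared per kilobase of merged exon. Snurf stood first at 423 CPM per kb, a value that rests on 216 bases shared with Snrpn, followed by Slc38a4 at 81.0 ± 1.15 (SD, n = 2), Snrpn at 79.8 ± 5.47, Peg10 at 65.1 ± 2.94 and Mest at 39.5 ± 4.85 CPM per kb. Slc38a4 and Snrpn overlapped, as did Mest and Impact. In all, 1 member was at or above 100 CPM per kb, 13 between 10 and 100, 14 between 1 and 10, and 9 under 1, and 15 of the 36 neighbouring pairs in this order overlapped. Growth regulators spread over this range: Igf2r stood at 22.5, Phlda2 at 19.1, Cdkn1c at 9.16, Grb10 at 1.68 and Igf2 at 0.370 CPM per kb. Kcnq1ot1 was low on this scale (0.204 CPM per kb) with an annotated length of 93092 bases.

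**Figure D4:**
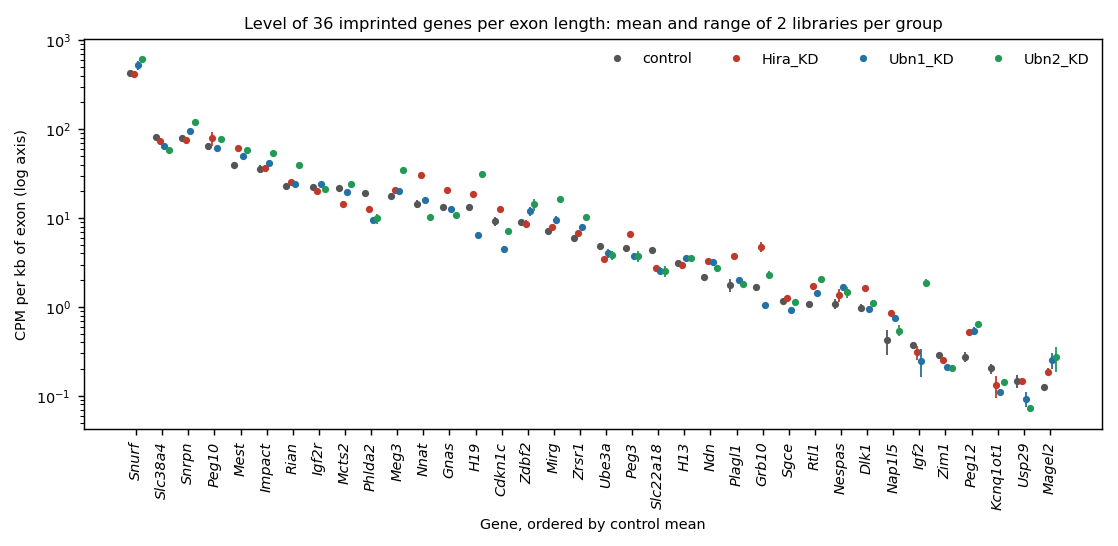
CPM per kilobase of merged exon (log axis) for the 36 imprinted genes with counts in control, ordered by the control mean, with points for the mean and bars for the range of 2 libraries per group; Airn, at 0 in control, is left out. The order runs from Snurf at 423 to Magel2 at 0.127 CPM per kb in control.

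By expressed allele, calls went in both directions. Of the 10 maternally expressed members, 0 were called higher and 1 lower in Hira_KD, 0 and 4 in Ubn1_KD, and 4 and 2 in Ubn2_KD. Of the 23 paternally expressed members tested, 5 were called higher and 2 lower in Hira_KD, 0 and 1 in Ubn1_KD, and 8 and 1 in Ubn2_KD. The all-gene shares called higher and lower were 10.8% and 5.4% in Hira_KD, 1.53% and 1.56% in Ubn1_KD, and 9.59% and 8.75% in Ubn2_KD, and counts of 1 among 10 or 23 members are near several of these. The 4 maternally expressed members that rose after Ubn2 depletion were the noncoding RNAs H19, Meg3, Rian and Mirg. The 4 that fell after Ubn1 depletion were H19, Cdkn1c, Phlda2 and Slc22a18, all on distal chromosome 7.

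Genes known for keeping or setting imprints, together with other DNA methylation and chromatin factors such as Tet1, were read from a separate list of 25. After Hira depletion 0 were called higher and 5 lower, again beside 10.8% and 5.4% of all genes, with a median log2 fold change of -0.32. Hells, a chromatin remodeller that supports DNA methylation, fell from 278 and 262 CPM to 109 and 115 CPM (-1.28 ± 0.08, edgeR adjusted p = 2.79e-10). Dnmt3l, the cofactor of the de novo methyltransferases, fell from 274 and 306 CPM to 134 and 170 CPM (-0.94 ± 0.09), and Uhrf1, which brings Dnmt1 to replicated DNA, from 534 and 546 CPM to 321 and 364 CPM (-0.67 ± 0.08). Zfp57 went from 476 and 503 CPM to 294 and 349 CPM (-0.62 ± 0.08) and Tet1, which oxidises methylcytosine, fell by 0.63 ± 0.10 on the log2 scale. Trim28, the partner of Zfp57, gave -0.53 ± 0.08 and Dnmt1 -0.23 ± 0.08, neither called. For the 5 genes that fell, no Hira-depleted library overlapped control. As these genes were picked by their calls, that separation is no further support. Zfp57, Tet1, Trim28 and Dnmt1 are named here after their values were seen.

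After Ubn1 and after Ubn2 depletion none of the factors was called in edgeR (25 and 24 tested), and DESeq2 also called 0. Of all genes, 3.09% and 18.3% were called in either direction by edgeR after Ubn1 and Ubn2 depletion. At an unadjusted p under 0.05, 0 were higher and 3 lower after Ubn1 depletion, and 10 higher and 3 lower after Ubn2 depletion. Compared directly, Hira depletion had 5 factors lower and 1 higher than Ubn2 depletion, with Zfp57 at -0.88 and Trim28 at -0.71. Of all genes, 5.61% were called lower and 12% higher in that comparison. DNA methylation was not measured in these libraries.

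**Figure D5:**
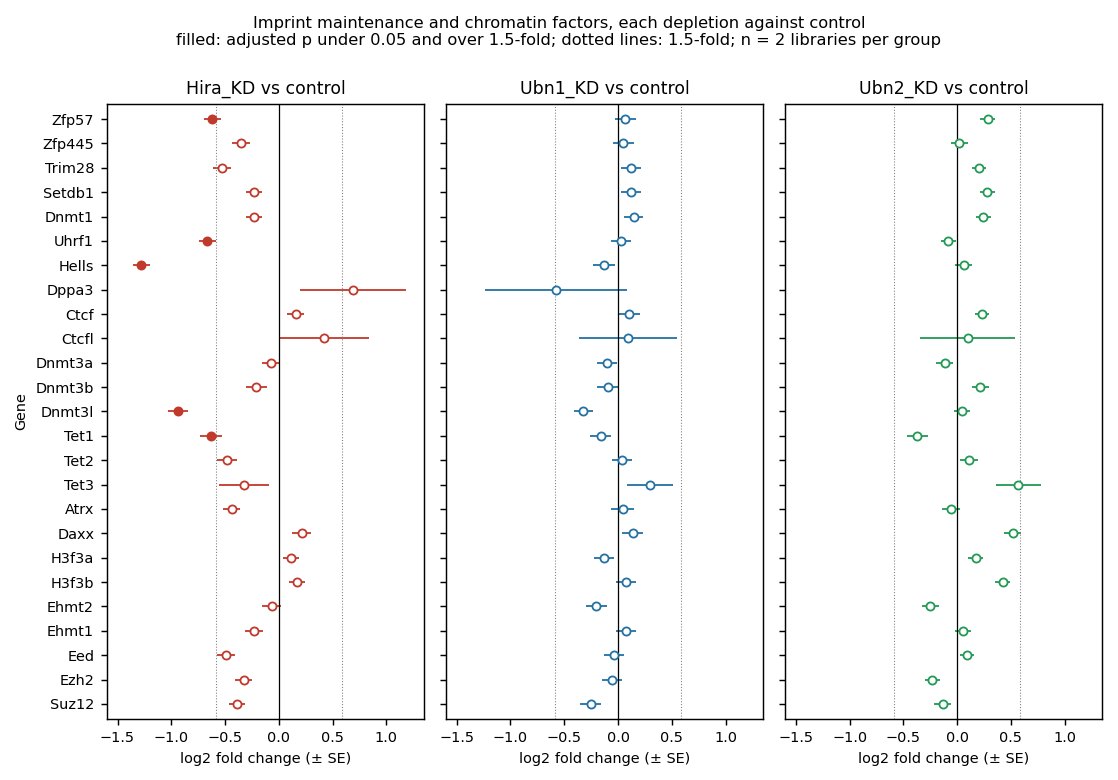
Fitted log2 fold change (± SE, 2 libraries per group) against control of 25 imprint, DNA methylation and chromatin factors, with filled points for called genes. Hells lies lowest at -1.28 after Hira depletion, and no point is filled after Ubn1 or Ubn2 depletion.

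A further list of 40 imprinted genes gave the context. After Hira depletion 7 were called higher and 2 lower of 28 tested, after Ubn1 depletion 2 and 1 of 27, and after Ubn2 depletion 5 and 2 of 25, and DESeq2 called 3 and 2, 0 and 0, and 4 and 1. Of all genes, 10.8% and 5.4%, 1.53% and 1.56%, and 9.59% and 8.75% were called higher and lower by edgeR in these comparisons. The 2 lower of 25 after Ubn2 depletion are thus near the background. The DESeq2 counts run over all 40 genes, and a DESeq2 share of all genes was not computed. Ascl2, a maternally expressed placental factor on distal chromosome 7, was called lower in each depletion by edgeR. Its log2 fold changes were -1.47 ± 0.31, -1.30 ± 0.31 and -2.64 ± 0.36, and DESeq2 did not make the Ubn1 call. It went from 3.02 and 6.30 CPM in control to 0.640 and 0.860 CPM after Ubn2 depletion. Ddc and Casd1 were called higher in both Hira_KD (0.72 and 0.82) and Ubn2_KD (1.25 and 0.99). Commd1, the host of Zrsr1, was called lower after Hira depletion (-0.64 ± 0.09). Peg13 and Dio3 were called higher by edgeR after Ubn1 depletion (0.61 and 1.31), and DESeq2 made neither call.

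Counting limits touch much of the list. Of the 37 members, 20 share exon bases with another gene of the tables, 17 of them on the opposite strand and 9 on the same strand. The strand setting of the counting is not given in the sources used here, so reads from a member and its antisense partner cannot be told apart.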

How the data were processed

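RNA-seq counts of 8 libraries were used, in 2 per group. Per the labels the authors used Trim Galore for trimming, STAR for alignment to GRCm38 and featureCounts; they deposited raw counts per gene, without normalization, in 3 tables of 55418 genes that repeat the same control libraries (0 differing values). Tool versions, strand setting and multi-mapping rule are not given in the sources used here. Counts on genes ranged from 19710040 to 32706053 per library. Intervals and the floor of 3 counts cover counting error only.

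Groups came from the labels. Each comparison was fitted on the whole table from its 4 libraries with edgeR 4.0.16 in R 4.3.3 (TMM, filterByExpr, quasi-likelihood test, Benjamini-Hochberg over all genes tested); standard errors come from the fold change and its F statistic. Alternatives were DESeq2 1.42.0 size factors and Wald test, no filter on low counts, a minimum of 10 counts per library, a joint fit of the 8 libraries, a replicate block, adjusted p alone and each library left out. Models were tested on simulated counts. With 2 against 2, an exact permutation test cannot go below p = 0.333, so none is given. Between replicates, chi-square per degree of freedom was 5.87 to 12.9, so no library was a copy of another. Positions are GENCODE M21 on GRCm38, and promoter windows are RefSeq, matched by symbol for 30 of 37 members.

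The members, gene lists and tests were chosen with earlier results of these data known. Members called in any comparison are given in every library and the others in ranges. From the other imprinted genes and the imprint and chromatin factors, up to 3 per comparison with the smallest adjusted p are named, and others only where said.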

Additional observations from a re-analysis of the deposited data

Results flagged for a closer look

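These results stand out because the change against the same control differed between 2 depletions when the depletions were compared directly (edgeR quasi-likelihood test, adjusted p under 0.05 and over 1.5-fold, 2 libraries per group). Values in brackets are log2 differences.

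In Hira_KD relative to Ubn2_KD the higher members were Cdkn1c (0.83), Peg3 (0.82), Usp29 (0.99), Grb10 (1.05), Plagl1 (1.07), Nnat (1.55) and Gnas (0.93), and the lower members were H19 (-0.74), Igf2 (-2.57), Meg3 (-0.77), Rian (-0.63), Mirg (-1.05), Snrpn (-0.66), Mcts2 (-0.74) and Zdbf2 (-0.73).

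In Ubn2_KD relative to Ubn1_KD the higher members were H19 (2.27), Igf2 (2.95), Cdkn1c (0.68), Meg3 (0.79), Rian (0.70), Mirg (0.78) and Grb10 (1.13), and Nnat (-0.63) was lower.

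In Hira_KD relative to Ubn1_KD the higher members were H19 (1.54), Cdkn1c (1.51), Dlk1 (0.77), Peg3 (0.79), Grb10 (2.19), Plagl1 (0.91), Nnat (0.92) and Gnas (0.73). H19, Cdkn1c, Grb10 and Nnat were called in all 3 of these comparisons, which share their libraries.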

How the results depend on the processing

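Of the 31 calls of a member against control, 17 held under every alternative and with each library left out, and 26 held under the alternatives that keep all 4 libraries. No call changed direction. The calls lost in at least 1 fit were Kcnq1ot1, Rtl1, Mest, Gnas and Mcts2 after Hira depletion, Slc22a18 and Grb10 after Ubn1 depletion, and Slc22a18, Usp29, Mest, Snrpn, Peg12, Impact and Zdbf2 after Ubn2 depletion. Beside adjusted p alone, 13 calls against control were gained in at least 1 fit. After Hira depletion these were Phlda2, Airn (without the filter or without the first control library), Nap1l5 (with the block or a minimum of 10 counts), Cdkn1c (0.62), Peg3 (0.60) and Ube3a (-0.62) without the second control library, Peg3 (0.61) also without the first Hira-depleted library, and Ndn (0.61) without the second. After Ubn1 depletion it was Nespas. After Ubn2 depletion they were Kcnq1ot1 (-0.68), Snurf (0.64) and Grb10 (0.61) without the second control library, Nnat (-0.61) without the first, Magel2 (1.51), Snurf (0.63) and Grb10 (0.62) without the second Ubn2-depleted library, and Magel2 with a minimum of 10 counts. Between depletions, the calls lost in at least 1 fit were Usp29, Snrpn and Zdbf2 in Hira against Ubn2 depletion, Cdkn1c and Nnat in Ubn2 against Ubn1 depletion, and none in Hira against Ubn1 depletion. With adjusted p alone, without the fold limit, the members called higher numbered 11 and lower 5 after Hira depletion (7 and 3 with it), higher 5 after Ubn1 depletion (0), and lower 10 after Ubn2 depletion (3). The same setting gave 12 higher in Ubn2 against Ubn1 depletion (7) and 4 lower in Hira against Ubn1 depletion (0). Shares of all genes called were not computed for this setting or for the fits that left out 1 library. With 1 library left out, the members called higher and lower numbered 7 to 8 and 2 to 4 after Hira depletion, 0 and 4 to 6 after Ubn1 depletion, and 8 to 14 and 2 to 4 after Ubn2 depletion. In Ubn2 against Ubn1 depletion the members called lower numbered 0 to 1 (0 without the second Ubn1-depleted or the second Ubn2-depleted library), and in Hira against Ubn1 depletion 0 to 1 (1, Zdbf2, without the second Hira-depleted or the second Ubn1-depleted library). In those fits a lone library was assumed to vary like its partner group. Leaving the 50 bases after the start out of the promoter windows moved the share with the searched letters to 17.4% of member windows and 8.68% of all windows.

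The labels give equal replicate numbers to the groups, but deviations of same-numbered libraries correlated between -0.121 and 0.112 over 16261 genes, so the numbers are not taken as a pairing. With the replicate block, 1 member, Nespas, was called higher after Ubn1 depletion (0 without the block), and after Hira depletion the block added Nap1l5 higher and Phlda2 lower, for 8 higher and 4 lower. Crossing the numbers for Hira against Ubn2 depletion, chosen after seeing the data, gave 7 higher and 8 lower, as without a block.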
